A study of Arabidopsis thaliana x Arabidopsis lyrata and Arabidopsis thaliana x Arabidopsis halleri with 18 samples.

Results

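The genes described here encode xyloglucan endotransglucosylase/hydrolases (XTHs), enzymes of the plant cell wall, and were followed in F1 hybrids of *Arabidopsis thaliana* under cold and dehydration. The members were chosen as 10 named *A. thaliana* XTH transcripts, and 6 of them had a row among the 16419 genes of the files: XTH4 (AT2G06850.1), XTH7 (AT4G37800.1), XTH15 (AT4G14130.1), XTH30 (AT1G32170.1), XTH32 (AT2G36870.1) and XTH33 (AT1G10550.1). XTH19, XTH22 (also called TCH4), XTH24 and XTH25 were not analysed here. RNA was sequenced from the whole aerial part of 1 hybrid plant per library, in 6 groups of 3 plants. The hybrids are called ColxMN47 and Colxhalleri here, after their labels, which give *Arabidopsis lyrata* and *Arabidopsis halleri* as the parent crossed to *A. thaliana* Col-0. Plants were grown on agar with sucrose at 22 °C with 16 h of light and were 4 weeks old. Each hybrid was sampled untreated at 22 °C (standard), after 1 h at 4 °C in dim light (cold), and after 1 h out of the agar in plastic dishes at 22 °C in dim light (dehydration). Standard plants are not said to have been moved to dim light, so the stress and the light cannot be told apart, nor can dehydration and the handling of the plants. The time of day of sampling is not stated.

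An XTH cuts a xyloglucan chain of the cell wall and either joins the cut end to another xyloglucan or releases it by hydrolysis. Because xyloglucan coats and tethers cellulose, these enzymes are known for both loosening and strengthening the walls of growing organs. Many family members are known in *A. thaliana* as genes that follow growth hormones, light, touch and other stimuli. In an F1 hybrid both parental alleles share 1 nucleus, so the ratio of their reads within a plant compares the alleles under the same conditions.

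The 6 genes lie on chromosomes 1, 2 and 4 (coordinates of TAIR10.1). XTH4, first described as an endoxyloglucan transferase, spans 2763449 to 2765743 on the plus strand of chromosome 2 with 4 exons. XTH7 spans 17775370 to 17777445 on the minus strand of chromosome 4 with 4 exons. XTH15, also known as XTR7 and as a gene of shade-induced growth, spans 8137020 to 8138392 on the minus strand of chromosome 4 with 3 exons. XTH30, also known as XTR4, spans 11575320 to 11578030 on the plus strand of chromosome 1 with 4 exons. XTH32, of the subgroup with predicted hydrolase activity, spans 15472607 to 15474828 on the minus strand of chromosome 2 with 4 exons. XTH33, which carries a predicted membrane anchor, spans 3479066 to 3481041 on the minus strand of chromosome 1 with 4 exons. The *A. thaliana* coding sequence of XTH15 shared 81.7% of aligned bases with its nearest family member, XTH16, and XTH33 shared 60.8% with XTH27. The other 4 members shared between 66.1% (XTH32 with XTH31) and 73.1% (XTH7 with XTH6), so no member had a near-identical copy in the family.

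XTH4, XTH15 and XTH33 were lower together in dehydrated Colxhalleri plants, as described below, and their 250 bases before the annotated transcript start are shown for that reason. They are the *A. thaliana* reference sequence of RefSeq (TAIR10.1), 5′ to 3′ on the strand of the gene, at chr2:2763199-2763448 (plus), chr4:8138393-8138642 (minus) and chr1:3481042-3481291 (minus). The sequence of the non-*thaliana* allele is not shown. In standard Colxhalleri plants that allele held 51.5% of the summed values of XTH4, 11.9% of XTH15 and 93.5% of XTH33. Capitals mark the only match to a searched motif, the W-box core.
XTH4: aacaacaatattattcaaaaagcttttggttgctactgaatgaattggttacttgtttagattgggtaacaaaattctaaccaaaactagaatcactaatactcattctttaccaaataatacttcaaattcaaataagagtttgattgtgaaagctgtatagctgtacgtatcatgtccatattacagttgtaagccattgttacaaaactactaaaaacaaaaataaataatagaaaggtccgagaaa
XTH15: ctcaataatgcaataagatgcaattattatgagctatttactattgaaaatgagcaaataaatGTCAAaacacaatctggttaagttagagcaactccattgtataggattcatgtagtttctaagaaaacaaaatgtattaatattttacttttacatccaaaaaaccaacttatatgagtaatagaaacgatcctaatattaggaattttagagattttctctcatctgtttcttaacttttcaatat
XTH33: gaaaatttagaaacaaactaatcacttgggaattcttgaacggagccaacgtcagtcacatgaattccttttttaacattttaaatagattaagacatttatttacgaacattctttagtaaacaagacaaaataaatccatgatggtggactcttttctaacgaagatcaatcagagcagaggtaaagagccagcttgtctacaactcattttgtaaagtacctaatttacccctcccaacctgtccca
Of 8 motifs searched on both strands, 6 had no match in any of the 6 members' windows. These were the G-box CACGTG (in 7.7% of 16401 windows of the same length), the ACGTG core of abscisic acid elements (23.8%, which overlaps the G-box), the dehydration element core CCGAC (12.4%), the CAMTA core CGCGT (7.3%), the BZR1 elements CGTGCG and CGTGTG (7.1%) and the evening element AAATATCT (4.8%). The W-box core TTGAC, found in 44.8% of windows, lay once in XTH15 (as GTCAA, 187 to 183 bases before the start), once in XTH30 and once in XTH32. TATAAA, found in 46.6% of windows, lay in XTH30 and XTH32. The windows of XTH4, XTH7 and XTH33 held none of the 8.

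The deposited values are scores, namely read numbers scaled per library to a near-equal total and rounded, with 1 added to each allele, so the depth of most libraries is unknown and its precision cannot be given. Deposited totals ran from 1524104 to 1531268 per library. In 5 of the 6 dehydrated libraries, gaps in the values gave implied totals of 930583 to 1430056 reads, so lower depth went with dehydration. The file headers of ColxMN47 plants call the second allele that of *A. halleri* and those of Colxhalleri plants that of *A. lyrata*, the reverse of the labels. The non-*thaliana* allele is therefore called the second allele, and which of these species it comes from cannot be told apart here. ColxMN47 dehydration replicate 2 stood apart, with 61.03% of its reads on the *thaliana* allele against 49.14% to 51.07% in the other 17 libraries. ColxMN47 standard replicate 1 and Colxhalleri cold replicate 1 had the lowest and highest scaling factors, 0.7724 and 1.1718. Of 6 rosette leaf markers 4 were in the files, with a summed level of 9110 to 86100. Of 7 root markers, all in the files, the summed level was 90.9 to 3020. COBL9 was at 0 in 5 of the 6 groups, while PYK10, a beta-glucosidase of ER bodies that seedling shoots also hold, ranged from 24.3 to 2950. Of 5 floral markers 4 were in the files, with a summed level of 0 to 37.9. The floral regulator AP1 was at 0 in every library, and SEP3 reached 31.6.

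The members differed widely in level. Levels are the sum of both alleles after TMM scaling, without the added 1s, and between genes they are compared per kilobase of transcript. In standard plants XTH4 and XTH7 were the most abundant members. XTH4 had a mean scaled sum per kilobase of 619 ± 237 (SD, n = 3) in ColxMN47 and 969 ± 305 in Colxhalleri, and XTH7 725 ± 391 and 788 ± 335. XTH15 followed in Colxhalleri with 98.2 ± 42.9, XTH32 with 96.7 ± 71.3, XTH33 with 83.3 ± 58.8 and XTH30 with 20.3 ± 2.71. In ColxMN47 standard plants the same 4 genes had means per kilobase between 9.91 ± 10 for XTH30 and 43.9 ± 31.3 for XTH32. With SDs this large, the order of XTH15, XTH32 and XTH33 in Colxhalleri was not beyond the spread between plants. All 6 genes passed the filter on low values (a deposited sum of at least 10 in at least 3 libraries), as did 13058 genes in all.

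**Figure D1:**
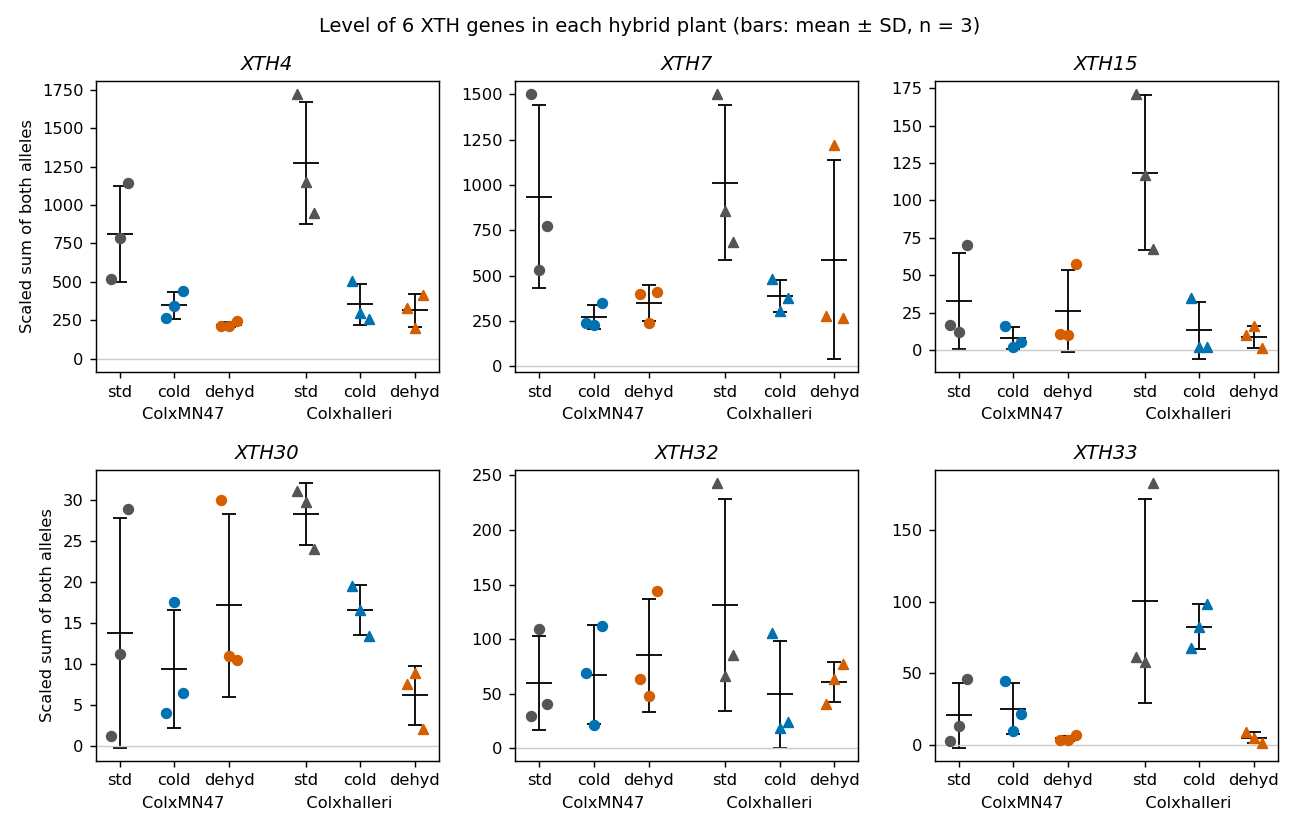
Scaled sum of both alleles (vertical axes, linear, a separate scale for each gene) of the 6 XTH genes in the 3 plants of each of the 6 groups (horizontal axis). Points are plants, and bars give the mean ± SD. In Colxhalleri, XTH4, XTH15 and XTH30 lie below all standard plants of that hybrid in both treatments, XTH7 after cold only and XTH33 after dehydration only.

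Across the 6 groups the mean scaled sums of XTH4 ran from Colxhalleri standard (1270 ± 400, n = 3) through ColxMN47 standard (814 ± 312), Colxhalleri cold (356 ± 134), ColxMN47 cold (349 ± 87.7) and Colxhalleri dehydration (316 ± 107) to ColxMN47 dehydration (223 ± 18.4). The plants of neighbouring groups in this order overlapped except between ColxMN47 standard and Colxhalleri cold. XTH33 ran from Colxhalleri standard (101 ± 71.1) and cold (82.6 ± 15.5) to ColxMN47 cold (25.2 ± 17.9) and standard (20.6 ± 22.6), and then to Colxhalleri (4.88 ± 3.79) and ColxMN47 (4.31 ± 2.08) dehydration. Its neighbours overlapped except between Colxhalleri cold and ColxMN47 cold. For XTH7, XTH15, XTH30 and XTH32 each pair of neighbouring groups overlapped. Colxhalleri standard plants had the highest mean of the 6 groups for all 6 genes.

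Dehydration was compared with standard conditions within each hybrid. In Colxhalleri plants XTH4, XTH15 and XTH33 fell, by 4.06-fold to 14.6-fold on the log2(scaled sum + 2) scale, and XTH7, XTH30 and XTH32 did not pass the test. These 3 of 6 members compare with 0.904% of all 13058 genes called lower (2.96% in either direction) at an adjusted p below 0.05 in limma. The median log2 change of the 6 members was -2.01, against 0.03 over all genes tested. In these whole-shoot samples, fewer cells that express a gene and less of its RNA per cell cannot be told apart.

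XTH33 had scaled sums of 61.3, 57.8 and 183 in standard Colxhalleri plants and of 8.63, 4.96 and 1.06 in dehydrated ones. The groups did not overlap, and each dehydrated plant was near the bottom of the scale. Its log2 change was -3.86 ± 0.74 (SE; limma adjusted p = 0.0074), 14.6-fold lower. Without standard replicate 3, its highest plant, the change was -3.31 with an adjusted p of 0.058. XTH15 had 171, 117 and 67.7 in standard plants and 9.71, 15.9 and 1.06 in dehydrated ones, again without overlap. Its log2 change was -3.71 ± 0.92 (adjusted p = 0.032), and leaving out any 1 of the 6 plants compared moved the adjusted p to between 0.055 and 0.14. XTH4 had 1720, 1150 and 950 in standard plants and 329, 202 and 416 in dehydrated ones. Each dehydrated plant held less than the lowest standard plant, and the log2 change was -2.02 ± 0.46 (adjusted p = 0.02). For XTH4 the adjusted p rose to 0.062 without dehydration replicate 1, 0.11 without dehydration replicate 2, 0.062 without standard replicate 2, 0.053 without standard replicate 3, and 0.076 when only these groups were fitted. The count of 3 members fell to 1 without dehydration replicate 1, dehydration replicate 2 or standard replicate 2, and to 0 without standard replicate 3.

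The other 3 members were also lower on average in dehydrated Colxhalleri plants but were not called. XTH30 had 31.2, 29.8 and 24.1 in standard plants and 7.55, 8.92 and 2.11 in dehydrated ones, which did not overlap (log2 change -2 ± 0.7, adjusted p = 0.12). XTH7 changed by -1.09 ± 0.57 (adjusted p = 0.31). One dehydrated plant, replicate 2, held 1220 of XTH7, above 2 of the standard plants, while the others held 276 and 268. XTH32 changed by -0.9 ± 0.72 (adjusted p = 0.53), with overlapping plants. All plants of the groups were apart for 4 of the 6 members, all lower, against 12.1% of all genes apart in that direction. The 3 dehydrated Colxhalleri libraries had been scaled up by 1.253-fold to 1.608-fold before deposit. The summed floral markers were 18.5 to 37.9 in standard and 1.08 to 2.11 in dehydrated Colxhalleri plants, without overlap, and the summed root markers 136 to 363 and 90.9 to 769. The part of this lower depth and of these markers in the results was not tested.

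In ColxMN47 plants no member was called for dehydration, where 0.421% of all genes were. For 2 members limma gave an unadjusted p below 0.05, as it did for 2410 of all 13058 genes. The median change of the 6 was -0.83 against 0.04 over all genes. XTH4 had 518, 784 and 1140 in standard plants and 213, 212 and 245 in dehydrated ones, with no overlap and a log2 change of -1.79 ± 0.46 (adjusted p = 0.077). XTH7 had 1500, 529 and 776 and then 400, 236 and 410, also with no overlap (-1.32 ± 0.57, adjusted p = 0.23). XTH33 held 2.59, 13.2 and 46 in standard plants, so that its lowest standard plant was already below the dehydrated ones (3.23, 2.99 and 6.71). Its change was -1.29 ± 0.74 (adjusted p = 0.36). XTH15 changed by -0.36 ± 0.92, XTH30 by 0.65 ± 0.7 and XTH32 by 0.55 ± 0.72, with adjusted p values of 0.65 to 0.87. The sign for XTH30 turned on 1 plant, at -0.2 without standard replicate 1 and 1.39 without standard replicate 3, and it was -0.08 with library weights. For XTH33 the change was -2.12 and -0.45 without the same plants, and for XTH15 it ran from -1.12 to 0.35 as single plants were left out. The plants of 2 members were apart and lower, against 11.7% of all genes. Without the 3 libraries that stand apart, the XTH7 change was -0.66 (adjusted p = 0.7). The summed root markers were 162 to 406 in standard and 410 to 3020 in dehydrated ColxMN47 plants, and the summed floral markers 4.72 to 11 and 0 to 1.92, both without overlap. Over all libraries PYK10, which seedling shoots also hold, reached 2950, and no other root marker exceeded 78. The root sum therefore mostly follows PYK10 where it is high. The part of these markers in the XTH values was not tested.

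The difference between the hybrids in the dehydration response was tested as an interaction. It was called for no member and for 0 of 13058 genes in limma, with 1279 genes at an unadjusted p below 0.05. Of the members, 3 were among the latter, each with the lower log2 change in Colxhalleri. The difference was -2.65 ± 0.99 for XTH30 (adjusted p = 0.39), -3.35 ± 1.3 for XTH15 (adjusted p = 0.41) and -2.57 ± 1.04 for XTH33 (adjusted p = 0.43). Dehydrated plants had similar XTH33 means, 4.88 ± 3.79 in Colxhalleri and 4.31 ± 2.08 in ColxMN47, near the bottom of the scale. Standard plants had 101 ± 71.1 and 20.6 ± 22.6. Dehydrated means were lower in Colxhalleri for XTH15 (8.87 against 26.1) and XTH30 (6.19 against 17.2). For XTH4 the difference in response was -0.23, with a 95% interval of -1.59 to 1.12. The calls in Colxhalleri alone are therefore not shown to differ from ColxMN47.

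Cold gave no called member in either hybrid, where 0.888% (ColxMN47) and 0.75% (Colxhalleri) of all genes were called. XTH4 and XTH15 in Colxhalleri came closest. XTH4 held 509, 297 and 261 after cold against 1720, 1150 and 950 in standard plants, without overlap, a log2 change of -1.85 ± 0.46 (adjusted p = 0.059). XTH15 held 35, 2.22 and 1.93 against 171, 117 and 67.7, also without overlap (-3.73 ± 0.92, adjusted p = 0.058). Most of the remaining XTH15 signal after cold came from replicate 1. Without that library, XTH15 had a change of -4.76 (adjusted p = 0.022) and XTH4 of -2.10 (adjusted p = 0.045), and 2 members were called. XTH7 changed by -1.33 ± 0.57 (adjusted p = 0.29), XTH32 by -1.54 ± 0.72 (adjusted p = 0.34) and XTH30 by -0.71 ± 0.7 (adjusted p = 0.71). XTH33 held 67.4, 82 and 98.4 after cold, within the range of standard plants, and its change was -0.09 (95% interval -1.63 to 1.46). In Colxhalleri 4 members were apart and lower, against 8.22% of all genes, and 4 had an unadjusted p below 0.05, as did 1825 of all 13058 genes.

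In ColxMN47 plants after cold, XTH4 held 265, 342 and 440 and XTH7 241, 228 and 347, each below all standard plants of that hybrid. The changes were -1.17 ± 0.46 (adjusted p = 0.23) for XTH4 and -1.66 ± 0.57 (adjusted p = 0.16) for XTH7. These 2 alone among the members had an unadjusted p below 0.05, as did 1980 of all 13058 genes. The background of genes apart and lower was 10.7%. XTH15 changed by -1.74 ± 0.92 (adjusted p = 0.38), and XTH30, XTH32 and XTH33 by -0.14, 0.11 and 0.64, with adjusted p values of 0.74 to 0.96. Without standard replicate 1 the changes of XTH30 and XTH33 were -0.99 and -0.18, and without standard replicate 3 they were 0.6 and 1.48. The interaction of hybrid and cold was called for no member and for 0.0153% of all genes (2 genes). No member had an unadjusted p below 0.05, while 1013 genes did. The summed leaf markers after cold were 9110 to 19600 in ColxMN47, which overlapped the 16900 to 86100 of its standard plants. In Colxhalleri they were 14700 to 27700 after cold, below the 55600 to 71900 of its standard plants. In dehydrated plants the leaf markers were 36600 to 42400 in ColxMN47 and 48800 to 60800 in Colxhalleri. The summed floral markers after cold were 2.03 to 3.71 in ColxMN47 and 0 to 11.6 in Colxhalleri, below all standard plants of the same hybrid. The summed root markers after cold were 152 to 371 and 222 to 1010. The markers' part in the XTH values was not tested.

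**Figure D2:**
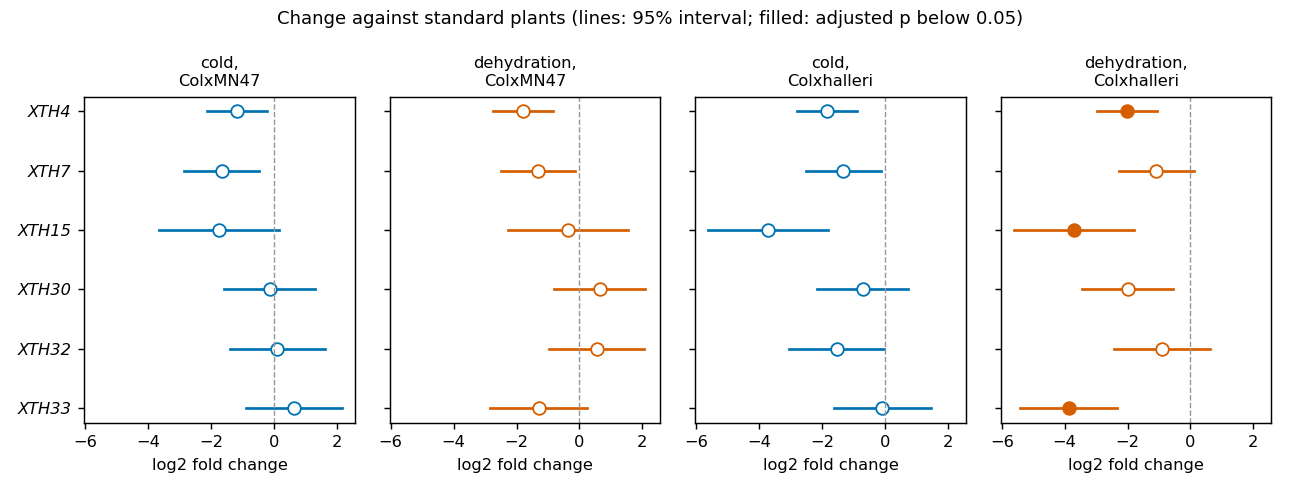
Log2 fold change (horizontal axes) of the 6 XTH genes in treated against standard plants of the same hybrid, from limma on log2(scaled sum + 2), with 95% intervals as lines and 3 plants per group. Filled points passed an adjusted p of 0.05 and are XTH4, XTH15 and XTH33 in dehydrated Colxhalleri plants. Both treatments of a hybrid share the same standard plants.

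Between the hybrids under standard conditions, all 6 members had a higher mean in Colxhalleri than in ColxMN47, and none was called, with 1.94% of all genes called. XTH33 had the largest difference, 57.8 to 183 against 2.59 to 46, with no overlap (2.57 ± 0.74 on the log2 scale, adjusted p = 0.079). That gene alone among the members had plants apart and higher, against 9.09% of all genes. Without ColxMN47 standard replicate 3, the difference in XTH33 was 3.41 (adjusted p = 0.025), and without ColxMN47 standard replicate 1 it was 1.74 (adjusted p = 0.32). XTH15 differed by 2.07 ± 0.92 (adjusted p = 0.25) and XTH30 by 1.45 ± 0.7 (adjusted p = 0.29). The XTH30 difference was 0.59 (adjusted p = 0.79) without ColxMN47 standard replicate 1 and 2.19 (adjusted p = 0.11) without replicate 3. XTH4, XTH7 and XTH32 differed by 0.67, 0.17 and 1.09, with adjusted p values of 0.46 to 0.92. The summed floral markers were also apart, at 18.5 to 37.9 in Colxhalleri and 4.72 to 11 in ColxMN47, and their part was not tested.

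The 2 alleles were then compared within each plant, as the log2 ratio of second to *thaliana* allele, averaged over the 3 conditions of a hybrid. In ColxMN47 plants XTH7, XTH15 and XTH33 had more RNA from the second allele and XTH32 slightly more from the *thaliana* allele. In Colxhalleri plants XTH7 and XTH33 again had more from the second allele, while XTH15 had more from the *thaliana* allele. The 4 members called in ColxMN47 compare with 46.2% of all genes (22% higher and 24.2% lower in the second allele). The 3 called in Colxhalleri compare with 59.2% (34.3% higher and 25% lower). Calls were thus common, and their number is not a result about the members. Their sizes and the differences between the hybrids follow gene by gene.

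**Figure D3:**
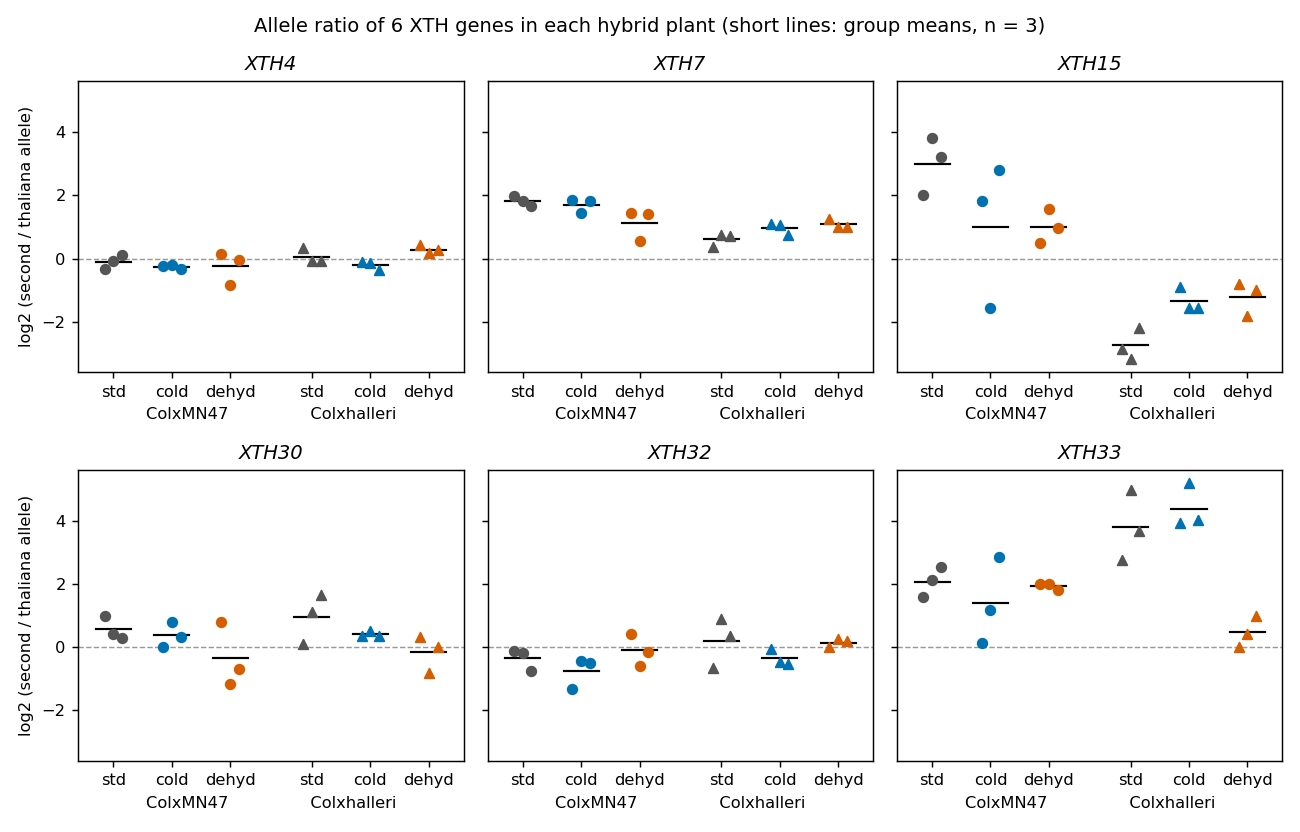
Log2 ratio of the second allele to the *thaliana* allele (vertical axes, 1 scale for all genes) of the 6 XTH genes in each plant, by hybrid and treatment (horizontal axis). Short lines are means of 3 plants, and the dashed line marks equal alleles. XTH15 lies on opposite sides of that line in the hybrids, apart from 1 ColxMN47 plant, and XTH7 and XTH33 lie on or above it. XTH33 lies nearer to it in dehydrated Colxhalleri plants, where low values limit the ratio.

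XTH15 leaned toward opposite parents in the hybrids. In standard ColxMN47 plants the *thaliana* allele, as deposited less the added 1, was at 2, 0 and 6 and the second allele at 11, 13 and 64. In standard Colxhalleri plants the *thaliana* allele was at 131, 117 and 63 and the second allele at 17, 12 and 13. The *thaliana* allele was thus the low one in each standard ColxMN47 plant and the high one in each standard Colxhalleri plant. Over all conditions, the second allele was higher in 8 of 9 ColxMN47 plants and the *thaliana* allele in 9 of 9 Colxhalleri plants. The exception was cold replicate 2, with 2 against 0. The mean log2 ratio was 1.68 ± 0.4 (adjusted p = 0.0067) in ColxMN47 and -1.77 ± 0.16 (adjusted p = 5.7e-06) in Colxhalleri. Their difference, Colxhalleri minus ColxMN47, was -3.45 ± 0.45 (adjusted p = 2.9e-05), in a test that called 30.7% of all genes.

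The *thaliana* allele of XTH15 alone, scaled as the sums were, was higher in standard Colxhalleri than in standard ColxMN47 plants by 4.56 ± 0.78 on the log2 scale (limma adjusted p = 0.013). That comparison was chosen after the values had been seen, and it called 0.4% of 11241 genes. The call was lost without ColxMN47 replicate 1 (4.62, adjusted p = 0.071), Colxhalleri replicate 2 (4.5, adjusted p = 0.06) or Colxhalleri replicate 3 (4.94, adjusted p = 0.058). The other 4 members that could be tested this way, XTH4, XTH7, XTH30 and XTH32, differed by 0.59 to 1.02, with adjusted p values of 0.47 to 0.71.

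**Figure D4:**
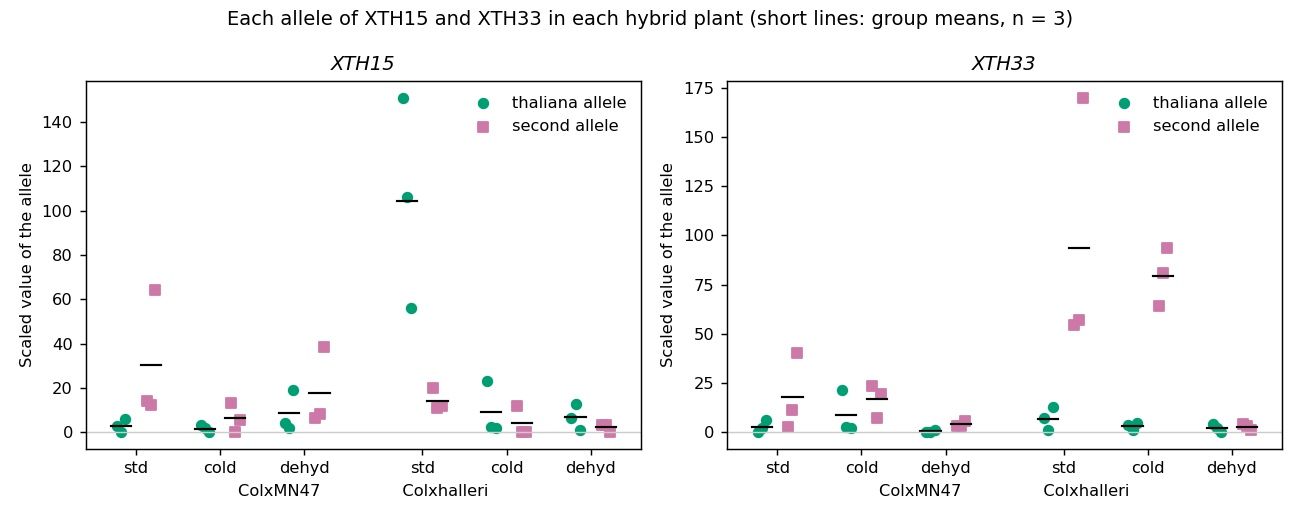
Scaled value of the *thaliana* allele and of the second allele (vertical axes, linear, a separate scale for each gene) of XTH15 and XTH33 in each plant, by hybrid and treatment (horizontal axis). Short lines are means of 3 plants. The *thaliana* allele of XTH15 is high in standard Colxhalleri plants, and the second allele of XTH33 is high in standard and cold Colxhalleri plants.

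XTH33 had more RNA from the second allele in both hybrids. In standard Colxhalleri plants the *thaliana* allele was at 6, 1 and 14 and the second allele at 47, 63 and 191, and after cold they were at 4, 1 and 5 and at 75, 73 and 97. The second allele was therefore the source of most XTH33 RNA in these 6 plants, 93.5% and 96.1% of the summed values in the standard and cold groups. In standard ColxMN47 plants the values were 0, 2 and 6 against 2, 12 and 40. The mean log2 ratio was 2.89 ± 0.22 (adjusted p = 1.6e-06) in Colxhalleri and 1.8 ± 0.26 (adjusted p = 0.00022) in ColxMN47. The second allele was higher in 9 of 9 ColxMN47 plants and in 8 of 9 Colxhalleri plants, with equal values in the ninth. The difference between the hybrids was 1.09 ± 0.36 (adjusted p = 0.028), and it did not pass the test without the libraries that stand apart (1.09, adjusted p = 0.07) or with 0.5 in place of 1 added to each allele (0.93, adjusted p = 0.095). Nor did it pass without ColxMN47 cold replicate 1 (adjusted p = 0.059), ColxMN47 standard replicate 1 (0.051), Colxhalleri cold replicate 2 (0.064), Colxhalleri dehydration replicate 3 (0.054) or Colxhalleri standard replicate 2 (0.058).

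XTH7 had more RNA from the second allele in 9 of 9 plants of each hybrid. Its log2 ratio ranged from 0.55 to 1.97 in ColxMN47 and from 0.36 to 1.26 in Colxhalleri. In standard plants the log2 ratio was 1.97, 1.84 and 1.67 in ColxMN47 and 0.36, 0.74 and 0.72 in Colxhalleri. No standard plant of one hybrid reached the range of the other. Over all conditions the mean ratio was 1.56 ± 0.12 (adjusted p = 2.3e-06) in ColxMN47, 2.94-fold more from the second allele, and 0.89 ± 0.07 (adjusted p = 1.2e-06) in Colxhalleri, 1.85-fold more. The difference was -0.67 ± 0.13 (adjusted p = 0.0011). ColxMN47 dehydration replicate 2, which leans toward the *thaliana* allele over all its genes, had the lowest ratio of that hybrid, 0.55, and without it the difference was -0.77.

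The alleles of XTH4, the other abundant member, were close to equal. The mean log2 ratio was -0.2 (95% interval -0.46 to 0.05) in ColxMN47 and 0.05 (-0.1 to 0.19) in Colxhalleri. XTH30 had a ratio of 0.2 (-0.29 to 0.69) in ColxMN47 and 0.4 (-0.01 to 0.81) in Colxhalleri. XTH32 had -0.4 ± 0.15 (adjusted p = 0.044) in ColxMN47, with the *thaliana* allele higher in 8 of 9 plants, and 0 (-0.31 to 0.31) in Colxhalleri. The XTH32 call in ColxMN47 was lost without any 1 of 7 of the 9 plants (standard replicate 1, 2 or 3, cold replicate 1 or 3, dehydration replicate 2 or 3), with adjusted p values up to 0.14. The difference between the hybrids was not called for XTH4 (0.25), XTH30 (0.21) or XTH32 (0.4), with adjusted p values of 0.16 to 0.63.

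A treatment change of the allele ratio was called for 1 member, XTH33 in dehydrated Colxhalleri plants, in a comparison that called 4.08% of all genes. The second allele of XTH33 went from 47, 63 and 191 in standard plants to 4, 3 and 1, while the *thaliana* allele went from 6, 1 and 14 to 4, 2 and 0. The summed share of the second allele went from 93.5% to 57.1%. The log2 ratio changed by -3.35 ± 0.54 (adjusted p = 0.011), and standard and dehydrated plants did not overlap. Dehydrated replicates 2 and 3 held too few units to reach the standard range of 2.78 to 5, whichever allele the units came from. For them the lack of overlap is therefore not a result about the alleles. The dehydrated values rest on 6 units of the *thaliana* and 8 of the second allele in 3 plants, and the 1 added to each allele pulls such ratios toward equality. The change was still called with 0.5 added in its place, but replicate 3 could not reach the standard range with that value either. After cold the ratio of XTH33 in Colxhalleri changed by 0.57 ± 0.54 (adjusted p = 0.64).

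The XTH15 log2 ratio in Colxhalleri was higher in both treatments without passing the test, by 1.39 ± 0.4 after cold (adjusted p = 0.094) and 1.54 ± 0.4 after dehydration (adjusted p = 0.055). With 0.5 in place of 1 added to each allele, the change after cold was 0.94 ± 0.48 (adjusted p = 0.35). No treated plant reached the standard range of -3.18 to -2.19. These ratios, too, rest on low values, with the second allele at 0 in 3 of the 6 treated plants. Those 3 plants held only 1 or 2 units of the *thaliana* allele, so they could not have reached the standard range. Whether the alleles became more equal is not shown by these plants. The XTH7 ratio in Colxhalleri was higher by 0.36 ± 0.16 (adjusted p = 0.26) and 0.48 ± 0.16 (adjusted p = 0.11), and its treated plants also lay outside the standard range. After cold they did so only barely, with a lowest ratio of 0.75 against 0.74 in the highest standard plant. The share of all genes with plants apart in allele ratio was not counted, here or for XTH33. No member was called after cold in Colxhalleri (2.48% of all genes called), or after cold (0.111%) or dehydration (0.0855%) in ColxMN47. In ColxMN47 the changes ranged from -2 for XTH15 in both treatments to 0.25 for XTH32 after dehydration, with adjusted p values of 0.32 to 0.94. Dehydrated ColxMN47 plants lay below the standard range for XTH15 and for XTH7 (-0.69 ± 0.28, adjusted p = 0.32). Both changes had the opposite sign to those in Colxhalleri. Without dehydration replicate 2 the XTH7 change was -0.4 (adjusted p = 0.44). The cold value of XTH15 was -0.7 (adjusted p = 0.85) without cold replicate 2, whose alleles were at 2 and 0.

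Of the 23 other XTH genes of *A. thaliana*, 14 were in the files and 9 passed the filter. After cold none of the 9 was called in ColxMN47, and 1, XTH11, was called in Colxhalleri, where it fell by 3.39 ± 0.68 on the log2 scale (adjusted p = 0.021). After dehydration none was called in ColxMN47, while in Colxhalleri XTH11 fell by 4.14 ± 0.68 (adjusted p = 0.0033) and XTH27 fell by 1.74 ± 0.44 (adjusted p = 0.034). Of all genes, cold called 0.888% in ColxMN47 and 0.75% in Colxhalleri, and dehydration 0.421% and 2.96%. XTH11 was a low gene, with scaled sums of 0 to 52.6 and a median of 2.54 over all libraries. It was too low in ColxMN47 for the allele test. The median change of the 9 was -1.05 in dehydrated Colxhalleri plants and between -0.65 and 0.1 in the other 3 comparisons. In the allele test, 3 of 8 were called in ColxMN47, all lower in the second allele (XTH28, XTH8 and XTH6, named after their values were seen), and 8 of 9 in Colxhalleri, 5 higher and 3 lower. The difference between the hybrids was called for 7 of 8, 5 higher and 2 lower. Of all genes, the allele test called 46.2% in ColxMN47, 59.2% in Colxhalleri and 30.7% for the difference. Whether the counts of these XTH genes exceed those shares was not tested. After dehydration in Colxhalleri the allele ratio of 1 of the 9 changed, that of XTH31, the nearest relative of XTH32, by 2.14 ± 0.32 (adjusted p = 0.0085). That comparison called 4.08% of all genes.

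Of the genes around these enzymes, those that make xyloglucan were not called in any of the 4 treatment comparisons (10 of 14 tested, lowest adjusted p 0.19), with medians of -0.09 to 0.27. The glucan synthase and xylosyltransferase genes of that pathway are on this list. Neither of the 2 tested genes that trim xyloglucan side chains was called (lowest adjusted p 0.3), nor was any of the 9 tested genes of brassinosteroid synthesis and signalling, a hormone pathway known to raise some XTH genes (lowest adjusted p 0.19). Of 4 touch genes 2 were tested, and 1 was called, in a comparison that called 2.96% of all genes. TCH2, which encodes a calmodulin-like protein, rose by 3.15 ± 0.67 in dehydrated Colxhalleri plants (adjusted p = 0.014). Its changes in the other 3 comparisons were 0.86 to 1.49, with adjusted p values of 0.24 to 0.61, and its hybrid difference under dehydration was 1.66 ± 0.94 (adjusted p = 0.6). The other, CML23, which encodes a related calmodulin-like protein, had a change of -1.42 ± 1.15 in dehydrated Colxhalleri plants (adjusted p = 0.54) and -1.13 after cold, and 0.72 and 1.09 in ColxMN47.

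Over the 18 libraries, log2(scaled sum + 2) of the members correlated pairwise with Pearson's r from 0.04 (XTH32 with XTH33) to 0.66 (XTH7 with XTH15), which describes libraries that share treatments and scaling. For the 3 members with a mean scaled sum of at least 50 over all libraries, the most alike genes of those tested were named. For XTH4 these were COX6B (r = 0.871), which encodes a subunit of cytochrome c oxidase, ACS7 (0.868), an enzyme of ethylene synthesis, and MPK4 (0.865), a mitogen-activated protein kinase. For XTH7 they were PBD2 (0.882), a subunit of the proteasome, AT3G63460 (0.791) and LSM6A (0.79), a protein of RNA processing. For XTH32 they were RANGAP2 (0.789), PDIL5-4 (0.778) and ROC5 (0.767). No member was among the 3 genes most like another.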

How the data were processed

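Libraries were made with the TruSeq RNA v2 kit from 18 F1 hybrid plants, per the labels' protocols. The files hold, per gene, a deposited score for each of the 2 alleles, per the file headers. Judged by the values, the authors scaled read numbers by library, rounded them and added 1. The submitters' processing notes name TopHat2, SAMtools, DESeq2 and TAIR10, with neither version nor role. The rule that gave a read to an allele is not stated in the labels or headers. Genes were located by ID in TAIR10.1 (16401 of 16419 matched), since the files hold no coordinates.

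For levels, the 1s were taken off, alleles summed and libraries scaled by TMM factors (trims of 30% and 5%). The test ran on log2(sum + 2), which understates changes of low genes, with a deposited sum of 10 or more required in 3 or more libraries and 1 mean per group over 18 libraries. Allele ratios were fitted by hybrid where the 2 alleles together averaged 10 or more (11697 ColxMN47 and 11655 Colxhalleri genes, 11193 for the difference). Tests were 2-sided in limma 3.58.1 (eBayes with trend and robust, R 4.3.3), adjusted by Benjamini-Hochberg over all genes tested and called at 0.05. They were also run on simulated data in which only more abundant genes were changed. That run does not cover genes as low as XTH15, XTH30 and XTH33. Alternatives were other scaling, filters, added values, fits, library weights and libraries left out.

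The members, lists and alternatives were chosen with earlier results of these data known. All members are named, as are list genes called in a treatment comparison (at most 2 per list and comparison) and the 3 genes most like each abundant member.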

Additional observations from a re-analysis of the deposited data

Results flagged for a closer look

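The difference between the hybrids in the allele ratio, Colxhalleri minus ColxMN47, passed its test for 3 of the 6 members. The same test called 30.7% of all genes, so the count is not a result about the members. The difference was -0.67 for XTH7 and 1.09 for XTH33, where both hybrids lean toward the second allele by different amounts. The XTH33 call was kept in 13 of 18 fits with a single library left out and in 4 of 6 other settings. For XTH15 it was -3.45, where the hybrids lean toward opposite alleles.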

How the results depend on the processing

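None of the members' called values changed direction under any alternative. Counts of called members stayed within 1.5 times in 214 settings and moved further in 16. After cold in Colxhalleri it was 1 with 10 added before log2, 2 with library weights, 2 without the 3 libraries that stand apart, and 0 to 2 with single libraries left out. With library weights it was 1 (XTH4) for cold and 1 (XTH4) for dehydration in ColxMN47. For dehydration in Colxhalleri it was 0 to 2 with single libraries left out, and for the hybrids under standard conditions 0 to 1, also for the *thaliana* allele alone (0 to 1). Requiring a mean of at least 50 left 2 called allele ratios in ColxMN47 and 1 hybrid difference, since fewer members were then tested. The allele ratios of XTH7 and XTH33 in both hybrids, those of XTH15, and the hybrid differences of XTH7 and XTH15 kept their calls in each setting that tested them. So did the dehydration change of the XTH33 ratio in Colxhalleri. Each of those settings rested on the low XTH33 values of dehydrated plants, which limit the ratio. The kept call therefore cannot show whether the XTH33 alleles shifted. Leaving the deposited scaling as it was moved the median change of all genes most for cold in ColxMN47, from 0.06 to 0.23. The cause of these moves was not tested. Low values limit XTH15, XTH30 and XTH33 most.

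Replicate numbers did not pair the plants, as the correlations of same-numbered plants' deviations ran from -0.0573 to 0.171. With the replicate block, the adjusted p was 0.031 for XTH4, 0.036 for XTH15 and 0.0098 for XTH33 under dehydration in Colxhalleri, and the XTH32 allele ratio in ColxMN47 was no longer called (-0.4, adjusted p = 0.067). The block moved no count of called members by over 1.5 times.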
